A study of Mus musculus with 12 samples.

Results

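ARNT sites at 20% oxygen without HIF1A are stretches of the mouse genome where the ARNT antibody, but not the HIF1A antibody, gave a reproducible ChIP-seq signal in N1E115 cells grown in room-air oxygen. There were 738 of them among 1647 reproducible ARNT regions at 20% O2, and the other 909 overlapped a HIF1A region and are called co-bound. N1E115 is a mouse neuroblastoma line that the labels mark as NOS1+, and all samples come from this line. The groups were ARNT at 4% O2, HIF1A at 4% O2, ARNT at 20% O2 and HIF1A at 20% O2, each with 2 peak lists, after 3 days of culture in 5% CO2. Each list was called by the authors on 1 sample against an input, which is chromatin sequenced without an antibody. The labels do not say that replicates were separate cultures, so tests between lists measure the spread between these lists, which may be technical. A region was counted where merged peaks of a group came from both of its lists, and sites were chosen by the presence of peaks in the 4 lists at 20% O2. The number of sites rests on the shortest list, since it was 4573 without ARNT 20% O2 replicate 2, and 489 without HIF1A 20% O2 replicate 1. Their values at 20% O2 are therefore a description, and only the lists at 4% O2, the location and the promoter sequence did not enter the choice. The lists at 4% O2 share the antibody targets, the cell line and, for replicate 1, the lane with those that made the choice. They are thus not independent of it.

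The 8 lists hold a position and a score for each peak, with no read counts, so depth is unknown. For ARNT at 4% O2 the lists hold 24942 and 9920 peaks, against 7252 and 1808 at 20% O2. For HIF1A at 4% O2 they hold 42701 and 13655, against 5393 and 13386 at 20% O2. Both HIF1A replicate 2 lists give 1 bp positions, which are read here as summits. Headers in the files place the 4 replicate 1 lists together on lane 6 of one flow cell, with ARNT replicate 2 on lane 5 of it for 20% O2 and on a different flow cell for 4% O2. Values within 1 lane are therefore those of the replicate 1 lists.

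ARNT, also called HIF-1 beta, is a basic helix-loop-helix PAS protein that is present at any oxygen level. It binds DNA as one member of a pair, with HIF1A or EPAS1 in hypoxia, with the dioxin receptor AHR, with neural PAS proteins, or with itself. HIF1A is hydroxylated and destroyed when oxygen is plentiful and builds up when it is scarce. The pair of HIF1A and ARNT reads the hypoxia response element, whose core is ACGTG or GCGTG, and ARNT with itself reads the E-box CACGTG. NF-Y is a different factor, made of 3 subunits, that reads the CCAAT box in many promoters, among them those of genes for mitosis and for the stress response of the endoplasmic reticulum.

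Promoters under 8 of the sites are shown because they hold the repeated CCAAT boxes and the hypoxia core that the later counts describe. Each line gives the 250 bases before the annotated start, 5′ to 3′ on the gene's strand, from RefSeq on GRCm38.p6, the build also called mm10. Capitals mark CCAAT on either strand (CCAAT or ATTGG) and the hypoxia core ACGTG on either strand (ACGTG or CACGT). The other form of the core, GCGTG, is not marked. The first 5 are from the 10 sites with the highest ARNT ranks at 20% O2, of which Evi5l, with 2 boxes, and Khsrp, with 1, are not shown. Cdk1 and Mcm3 belong to the cell cycle, and P4ha1 to the site with the highest HIF1A rank at 4% O2. Other cell cycle promoters are not shown and held fewer boxes in these 250 bases, with 1 in Plk1 and 2 each in Aurka and Mcm5.
Top2a: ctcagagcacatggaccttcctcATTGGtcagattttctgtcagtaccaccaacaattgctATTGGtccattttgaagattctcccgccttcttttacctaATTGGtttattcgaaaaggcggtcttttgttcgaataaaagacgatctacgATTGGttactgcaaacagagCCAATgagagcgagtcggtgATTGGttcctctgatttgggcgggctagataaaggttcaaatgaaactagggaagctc
Eif2ak3: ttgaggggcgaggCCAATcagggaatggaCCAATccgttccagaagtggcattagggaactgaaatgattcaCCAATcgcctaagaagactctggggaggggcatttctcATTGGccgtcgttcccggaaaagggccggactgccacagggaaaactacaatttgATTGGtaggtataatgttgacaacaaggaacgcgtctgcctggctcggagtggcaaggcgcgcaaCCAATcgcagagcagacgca
Rab5b: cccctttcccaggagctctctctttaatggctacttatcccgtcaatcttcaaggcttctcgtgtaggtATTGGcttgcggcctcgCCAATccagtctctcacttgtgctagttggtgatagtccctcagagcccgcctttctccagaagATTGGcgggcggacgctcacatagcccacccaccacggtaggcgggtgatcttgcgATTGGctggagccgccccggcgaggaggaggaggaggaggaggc
Flad1: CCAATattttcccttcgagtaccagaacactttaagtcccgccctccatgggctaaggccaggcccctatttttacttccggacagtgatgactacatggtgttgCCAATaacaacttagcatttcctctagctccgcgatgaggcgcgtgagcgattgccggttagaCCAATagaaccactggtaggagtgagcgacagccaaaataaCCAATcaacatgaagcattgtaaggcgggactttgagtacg
Sp2: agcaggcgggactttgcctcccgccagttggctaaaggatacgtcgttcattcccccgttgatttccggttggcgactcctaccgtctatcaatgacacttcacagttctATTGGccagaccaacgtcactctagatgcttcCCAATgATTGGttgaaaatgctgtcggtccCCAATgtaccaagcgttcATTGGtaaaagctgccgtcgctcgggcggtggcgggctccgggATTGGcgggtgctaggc
Cdk1: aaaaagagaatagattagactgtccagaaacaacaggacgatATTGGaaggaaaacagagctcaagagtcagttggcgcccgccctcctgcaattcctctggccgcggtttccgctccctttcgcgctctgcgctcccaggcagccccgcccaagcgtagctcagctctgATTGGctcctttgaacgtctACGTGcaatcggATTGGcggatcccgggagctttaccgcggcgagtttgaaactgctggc
Mcm3: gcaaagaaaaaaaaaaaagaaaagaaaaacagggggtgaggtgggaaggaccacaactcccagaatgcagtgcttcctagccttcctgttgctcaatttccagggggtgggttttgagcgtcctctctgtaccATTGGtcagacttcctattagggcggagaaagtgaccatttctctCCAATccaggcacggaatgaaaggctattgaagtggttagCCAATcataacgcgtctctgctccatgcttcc
P4ha1: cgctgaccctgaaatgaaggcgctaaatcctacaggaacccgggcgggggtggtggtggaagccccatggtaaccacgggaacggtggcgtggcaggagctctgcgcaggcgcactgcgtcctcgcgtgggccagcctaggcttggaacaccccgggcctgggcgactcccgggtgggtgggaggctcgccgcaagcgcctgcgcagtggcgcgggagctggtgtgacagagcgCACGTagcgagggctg
Top2a lies on chromosome 11 (chr11:99024190-99024439, minus strand), Eif2ak3 at chr6:70844265-70844514 (plus), Rab5b at chr10:128696269-128696518 (minus) and Flad1 at chr3:89411882-89412131 (minus). Sp2 lies at chr11:96977689-96977938 (minus), Cdk1 at chr10:69352913-69353162 (minus), Mcm3 at chr1:20820313-20820562 (minus) and P4ha1 at chr10:59323046-59323295 (plus). Top2a, Eif2ak3 and Sp2 have 6 boxes each, Rab5b and Flad1 4 each, and Cdk1 and Mcm3 3 each. P4ha1 has 0 boxes and 1 ACGTG core close to the start, and it also holds the unmarked GCGTG. Cdk1 has 1 ACGTG core between its boxes.

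More than 1 in 2 of these ARNT sites lay close to a transcription start, mostly upstream of it, and few co-bound sites did. Start sites were used for 728 of the sites, on all chromosomes but 18. Of these, 424 (58.2%, 95% Wilson interval 54.6 to 61.8) had their centre within 500 bp of an annotated start, against 62 of 902 co-bound regions (6.87%, 5.40 to 8.71). The median distance was 192.5 bp, against 36780 bp for co-bound regions. Intervals here cover the counting of regions only, which are not replicates, so no test was made between the sets. Of the 424 sites near a start, 356 (84.0%, or 48.9% of all 728) had their centre upstream of it, and their median position was 67.5 bp upstream. ARNT regions at 4% O2 that had no ARNT peak at 20% O2 were intermediate, with 1789 of 5157 (34.7%, 33.4 to 36.0) within 500 bp, and reproducible HIF1A regions at 4% O2 had 2911 of 12317 (23.6%). By gene ends, which also cover chromosome 18, 451 of the 738 sites (61.1%, 57.5 to 64.6) had their centre within 1 kb of either end of a protein-coding gene, against 78 of 909 co-bound regions (8.58%, 6.93 to 10.6). Of all 738, 419 lay within 1 kb of a protein-coding start, 143 others had their centre inside a protein-coding gene, and 176 lay between genes. The last group is not all distant from genes. It includes sites centred 240 bp from Kdm4b and 224 bp from H2ax, for which no protein-coding start within 1 kb was listed. Without ARNT 20% O2 replicate 2, 29.2% of sites lay within 500 bp of a start, against 6.31% of co-bound regions. The sites were narrow, from 104 to 773 bp with a median of 170 bp.

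**Figure D1:**
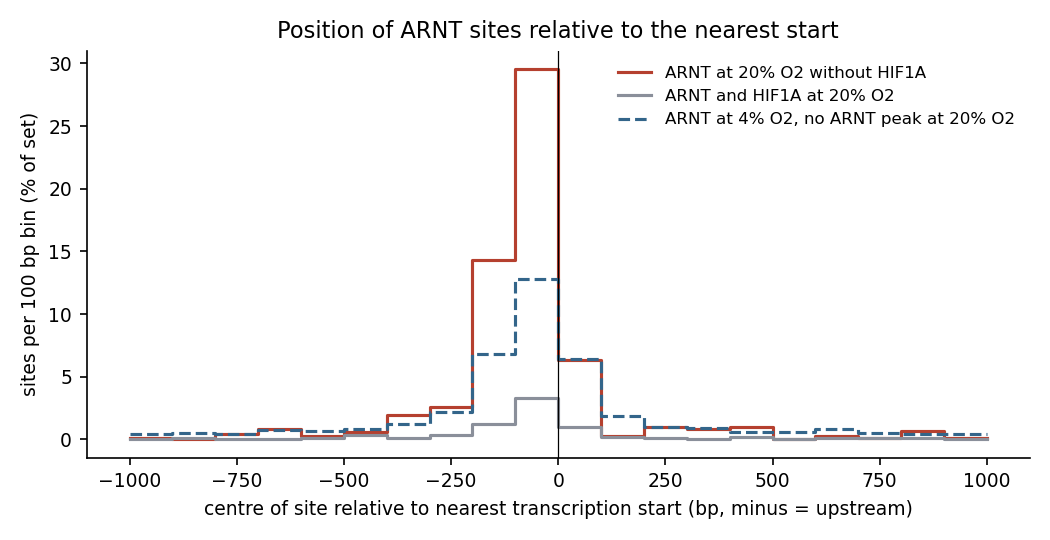
Position of the centre of each site relative to the nearest annotated transcription start, in bp on the x axis, as the percent of each set in bins of 100 bp on the y axis. The curve of ARNT sites without HIF1A peaks in the bins just upstream of the start, above both other sets, while co-bound sites are almost absent from the plotted range.

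HIF1A peaks at these sites did not meet the rule for a reproducible region at 20% O2, but they were neither absent nor weak at all of them. At 22 sites the HIF1A replicate 2 peak at 20% O2 had a rank over 90 by its score within that list. Among them were P4ha1 (99.98) and Alkbh5 (99.96). Of the 738, 419 (56.8%, 53.2 to 60.3) had a HIF1A peak in neither list at 20% O2, 258 had one in replicate 2 only, 47 in replicate 1 only, and 14 in both lists at positions that did not overlap each other. Over all 4 HIF1A lists, 120 sites (16.3%, 13.8 to 19.1) had no peak at either oxygen level. At the edge of the rule, the sites nearest to a HIF1A region at 20% O2 lay 137 bp (in Lrmda), 150 bp (near Tbpl1) and 205 bp (at Daam1) from it. The co-bound regions with the fewest shared bases shared 64 bp (at Mxd1), 83 bp (in Taf3) and 89 bp (near AW549877). Few sites stood near this edge, as 730 remained where no HIF1A region at 20% O2 could lie within 500 bp.

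CCAAT boxes were repeated in the promoters under these sites. A promoter window runs from 250 bases before to 50 after a start, 395 of the sites overlapped one, and boxes were counted on both strands without overlap. Of the 395 windows, 252 (63.8%, 58.9 to 68.4) held at least 1 box, against 28 of 54 co-bound windows (51.9%, 38.9 to 64.6) and 38.5% of all 21045 protein-coding promoters. The contrast grew with the number of boxes. At least 3 boxes stood in 125 windows (31.6%, 27.3 to 36.4), against 7 of 54 co-bound windows (13.0%, 6.42 to 24.4), 64 of 1630 windows of ARNT regions new at 4% O2 (3.93%, 3.09 to 4.98), 146 of 2614 of HIF1A regions at 4% O2 (5.59%) and 3.73% of all coding promoters. At least 4 stood in 66 windows (16.7%), against 2 of 54 co-bound windows. The CCAAT motif was added after the nearest genes had been seen, so these shares describe the lists and are not independent evidence. Without ARNT 20% O2 replicate 2, 235 of 1185 windows (19.8%) held at least 3 boxes, against 13 of 145 co-bound windows (8.97%). Without HIF1A 20% O2 replicate 1 it was 87 of 247 (35.2%), against 45 of 202 co-bound windows (22.3%). Where a peak in either HIF1A list at 20% O2 made a region co-bound, it was 85 of 238 (35.7%), against 47 of 211 (22.3%). The median GC content of the windows was 58.0%, against 59.5% in co-bound windows, 64.0% in windows of ARNT regions new at 4% O2, 62.7% in those of HIF1A regions at 4% O2 and 56.7% in all coding promoters, and its part in the box counts was not tested.

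**Figure D2:**
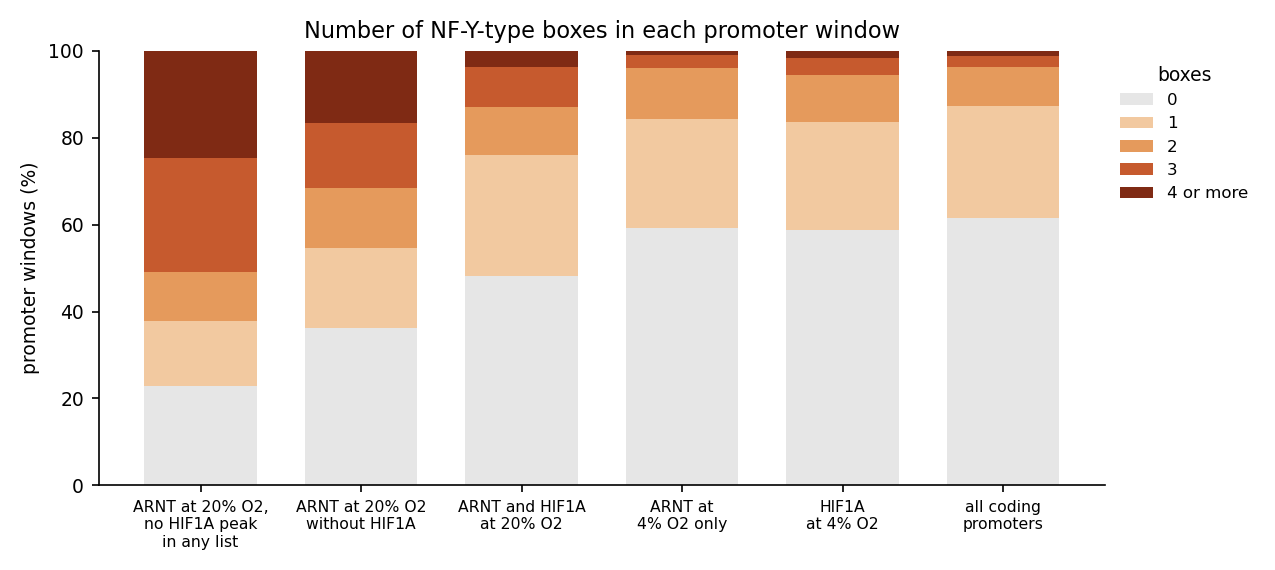
Number of NF-Y-type (CCAAT) boxes per promoter window, as the percent of windows in each set. The 2 left bars, ARNT sites with no HIF1A peak in any list and all ARNT sites without a HIF1A region at 20% O2, have the largest dark parts (3 boxes or more), 50.8% and 31.6%, against 3.73% in all coding promoters.

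Boxes lay closer to the centres of these sites than to those of other regions. In the 252 sites with a box in their window, the median distance from the centre of the site to the nearest box was 29 bp, and 169 (67.1%) had one within 50 bp. Among regions with a box, 10 of 28 co-bound regions (35.7%), 300 of 664 ARNT regions new at 4% O2 (45.2%) and 454 of 1082 HIF1A regions at 4% O2 (42.0%) had one that close. Windows with several boxes offer more of them to be near. The other sets also had wider regions, with medians of 229 bp for co-bound regions, 250 bp for ARNT regions new at 4% O2 and 297 bp for HIF1A regions at 4% O2, against 170 bp for these sites. The part of either in the distance was not tested. The median position of boxes under these sites was 91 bp upstream of the start, and in all coding promoters it was 88 bp upstream. Per 100 windows, the bin from 75 to 50 bp upstream held 24.6 boxes under these sites, against 8.45 in all coding promoters. Of 404 pairs of neighbouring boxes, 76 (18.8%) were 29 to 34 bp apart and 55 (13.6%) 39 to 44 bp apart, against 12.2% and 10.8% of pairs in all coding promoters.

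**Figure D3:**
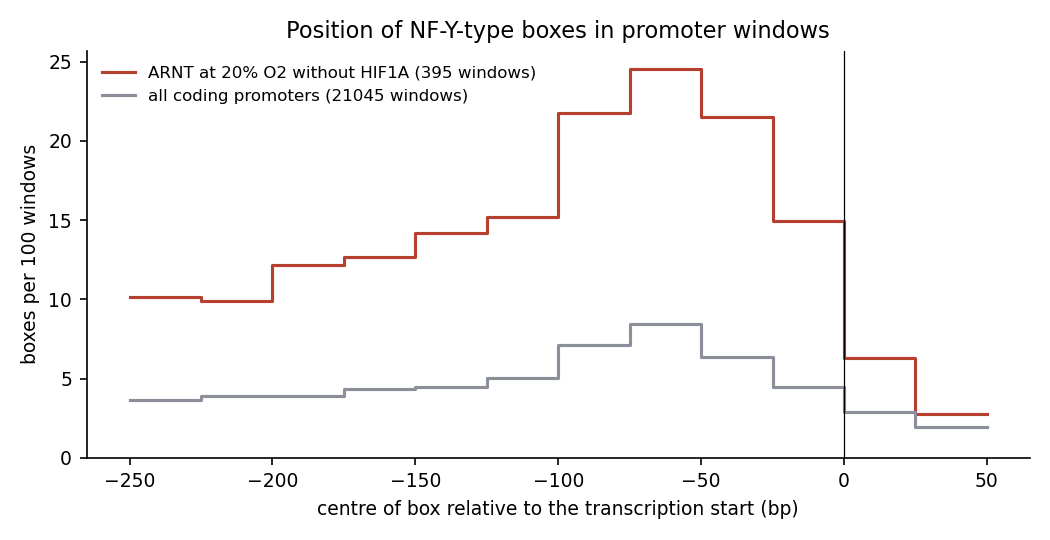
Boxes per 100 promoter windows in bins of 25 bp, by the position of the box's centre relative to the transcription start in bp. Both curves peak 100 to 25 bp upstream of the start, and the curve of ARNT sites without HIF1A lies above that of all coding promoters in every bin.

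Motifs that ARNT and its partners are known to read were less marked. The hypoxia core ACGTG stood in 110 of 395 windows (27.8%, 23.7 to 32.5), against 21 of 54 co-bound windows (38.9%, 27.0 to 52.2) and 21.1% of all coding promoters. It was more common under ARNT regions new at 4% O2, in 802 of 1630 windows (49.2%, 46.8 to 51.6). The core GCGTG stood in 203 windows (51.4%, 46.5 to 56.3), against 38.9% of co-bound windows and 38.8% of all coding promoters. The E-box CACGTG, which contains ACGTG, stood in 28 windows (7.09%, 4.95 to 10.1), against 11 of 54 co-bound windows (20.4%, 11.8 to 32.9) and 7.91% of all coding promoters. The full cAMP response element TGACGTCA was in 17 windows (4.30%), against 9 of 54 co-bound windows (16.7%) and 2.26% of all coding promoters. The AP-1 motif TGACTCA was in 12 windows (3.04%), against 3 of 54 co-bound windows (5.56%) and 4.69% of all coding promoters. CCGGAAG, the sequence read by ETS factors and also added later, was in 127 windows (32.2%, 27.7 to 36.9), against 10 of 54 co-bound windows (18.5%) and 11.7% of all coding promoters. A match is a run of letters on either strand, not a shown binding site.

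At 4% O2 nearly all of the sites still had a peak, but the lists differed widely. A peak of ARNT replicate 1 at 4% O2 overlapped 688 of the 738 sites (93.2%, 91.2 to 94.8), and one of ARNT replicate 2 overlapped 335 (45.4%, 41.8 to 49.0). A peak of HIF1A replicate 1 overlapped 600 (81.3%, 78.3 to 83.9), and one of HIF1A replicate 2 overlapped 225 (30.5%, 27.3 to 33.9). The longer list of each antibody gave the higher share. The mean was 69.3% ± 33.8 for ARNT and 55.9% ± 35.9 for HIF1A (SD, n = 2 lists each), a difference of 13.4 percentage points that was smaller than the spread between lists (two-sided exact permutation test, p = 0.667, where 6 arrangements allow no less than 0.333). It turned to -10.5 points without ARNT 4% O2 replicate 1, -12.0 without HIF1A 4% O2 replicate 2 and -1.12 without ARNT 20% O2 replicate 2. Leaving out a list at 4% O2 sets 1 list against 2 of unlike length. Within replicate 1 (93.2%, against 81.3%) and within replicate 2 (45.4%, against 30.5%) the ARNT share was the higher one, though these lists also differ in length. No peak in any list at 4% O2 was found at 25 sites (3.39%, 2.30 to 4.95), against 4 of 909 co-bound regions (0.440%, 0.171 to 1.13) and 1.76% of all ARNT regions at 20% O2. That share was 13.0% without ARNT 4% O2 replicate 1, 14.1% without ARNT 20% O2 replicate 2, 6.23% without HIF1A 4% O2 replicate 1 and 61.4% with the 1808 highest peaks of each list.

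Set against co-bound regions, HIF1A peaks at 4% O2 were the scarcer signal at these sites. The HIF1A shares were 81.3% and 30.5%, against 99.3% and 71.0% of co-bound regions in replicates 1 and 2, so both lists differed in the same direction, by -18.0 and -40.5 percentage points. The ARNT shares were 93.2% and 45.4%, against 96.7% and 21.7% of co-bound regions, so the ARNT lists differed in opposite directions, by -3.47 and 23.7 points. Over the 4 lists the mean difference was -9.57 ± 26.9 points (SD, n = 4), and 0.736 points without HIF1A 4% O2 replicate 2. A two-sided exact sign-flip permutation test gave p = 0.625, where 16 arrangements allow no less than 0.125. These values pool both antibodies, whose means differed in sign. They were 10.1 ± 19.2 points for ARNT and -29.3 ± 15.9 for HIF1A (SD over replicates 1 and 2). The pooled spread thus holds the contrast between antibodies, and the test does not judge either antibody alone.

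**Figure D4:**
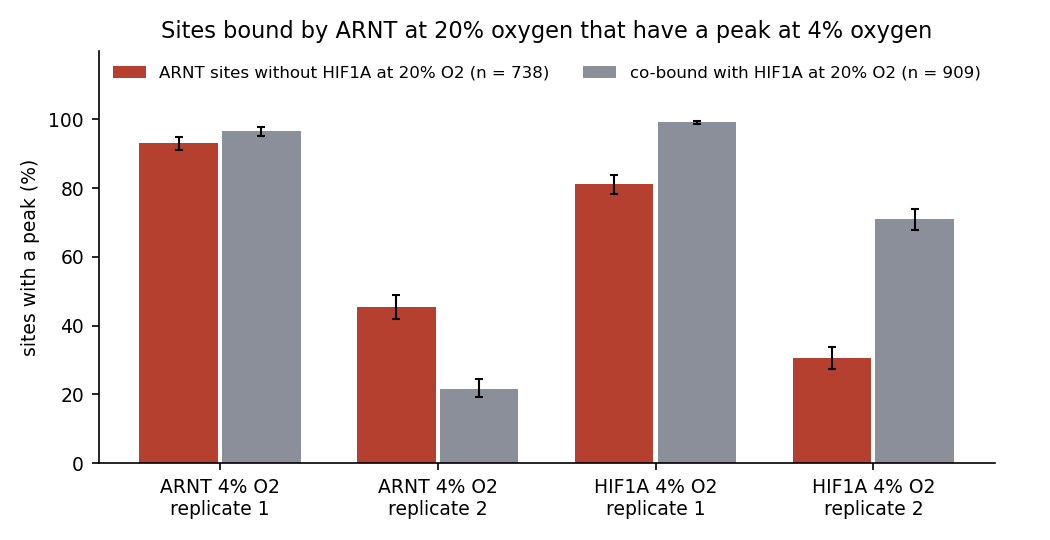
Percent of ARNT sites at 20% O2 that overlap a peak in each of the 4 lists at 4% O2, for sites without a HIF1A region (left bars) and co-bound sites (right bars). Error bars are 95% Wilson intervals over regions, and the HIF1A bars of both replicates are lower for sites without a HIF1A region.

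Counted as reproducible regions, 333 of the 738 sites (45.1%, 41.6 to 48.7) had an ARNT region at 4% O2, against 205 of 909 co-bound regions (22.6%, 20.0 to 25.4) and 32.7% of all ARNT regions at 20% O2. A HIF1A region at 4% O2 was present at 265 (35.9%, 32.5 to 39.4), against 682 of 909 co-bound regions (interval 72.1% to 77.7%) and 57.5% of all ARNT regions at 20% O2. Both shares are set by the shorter list of a group, as the ARNT share was 93.2% without ARNT 4% O2 replicate 2 and the HIF1A share 81.3% without HIF1A 4% O2 replicate 2. The ARNT share was also 25.0% without ARNT 20% O2 replicate 2, and cutting every list to its 1808 top-scored peaks gave 10.1% for ARNT and 7.82% for HIF1A. The ARNT comparison with co-bound regions turned round with the 1808 top-scored peaks (10.1%, against 14.1% of co-bound regions) and without ARNT 4% O2 replicate 2 (93.2%, against 96.7%). It also differed by location. Within 500 bp of a start, 241 of 424 sites (56.8%, 52.1 to 61.5) had an ARNT region at 4% O2, against 36 of 62 co-bound regions (58.1%, 45.7 to 69.5). Beyond 500 bp the shares were 88 of 304 (28.9%, 24.1 to 34.3) and 167 of 840 co-bound regions (19.9%, 17.3 to 22.7). The HIF1A share was lower than in co-bound regions at both locations, since 148 of 424 sites near a start (34.9%, 30.5 to 39.6) had a HIF1A region at 4% O2, against 43 of 62 co-bound regions (69.4%, 57.0 to 79.4), and beyond 500 bp 114 of 304 (37.5%), against 634 of 840 co-bound regions (75.5%).

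Motif shares differed between the states at 4% O2. Of the 738, 152 had an ARNT region alone at 4% O2, 181 had both an ARNT and a HIF1A region, 84 a HIF1A region alone, 296 a peak without a region, and 25 none. With an ARNT region alone, 69 of 120 promoter windows (57.5%) held at least 3 CCAAT boxes and 25 (20.8%) held ACGTG. With both regions the order was turned round, as 32 of 107 windows (29.9%) held at least 3 boxes and 58 (54.2%) held ACGTG. With a HIF1A region alone, 4 of 29 windows (13.8%) held at least 3 boxes and 7 (24.1%) held ACGTG. With a peak but no region, 20 of 134 windows held at least 3 boxes and 20 held ACGTG (14.9% each). Of the 37 sites with an ARNT region at 4% O2 and no HIF1A peak in any of 4 lists, 28 had a window, and 22 of these (78.6%) held at least 3 boxes, while 3 (10.7%) held ACGTG.

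Read from the promoter, windows with at least 3 boxes had an ARNT region at 4% O2 in 101 of 125 cases (80.8%, 73.0 to 86.7), against 126 of 270 windows with fewer boxes (46.7%, 40.8 to 52.6). Their HIF1A regions at 4% O2 were 36 of 125 (28.8%, 21.6 to 37.3), against 100 of 270 (37.0%, 31.5 to 42.9) in windows with fewer boxes. Windows with ACGTG had a HIF1A region at 4% O2 in 65 of 110 cases (59.1%, 49.7 to 67.8), against 71 of 285 without it (24.9%, 20.2 to 30.2). The other core, GCGTG, showed little of this, as 72 of 203 windows with it (35.5%, 29.2 to 42.3) had a HIF1A region at 4% O2, against 64 of 192 without it (33.3%, 27.1 to 40.3). ARNT regions at 4% O2 were also more common with ACGTG, at 83 of 110 windows (75.5%, 66.6 to 82.5), against 144 of 285 without it (50.5%, 44.8 to 56.3). Both ARNT contrasts, by boxes and by ACGTG, rest on replicate 2 at 4% O2. ARNT replicate 1 had a peak at 124 of 125 windows with at least 3 boxes and at 259 of 270 with fewer. It had one at 109 of 110 windows with ACGTG and at 274 of 285 without it.

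**Figure D5:**
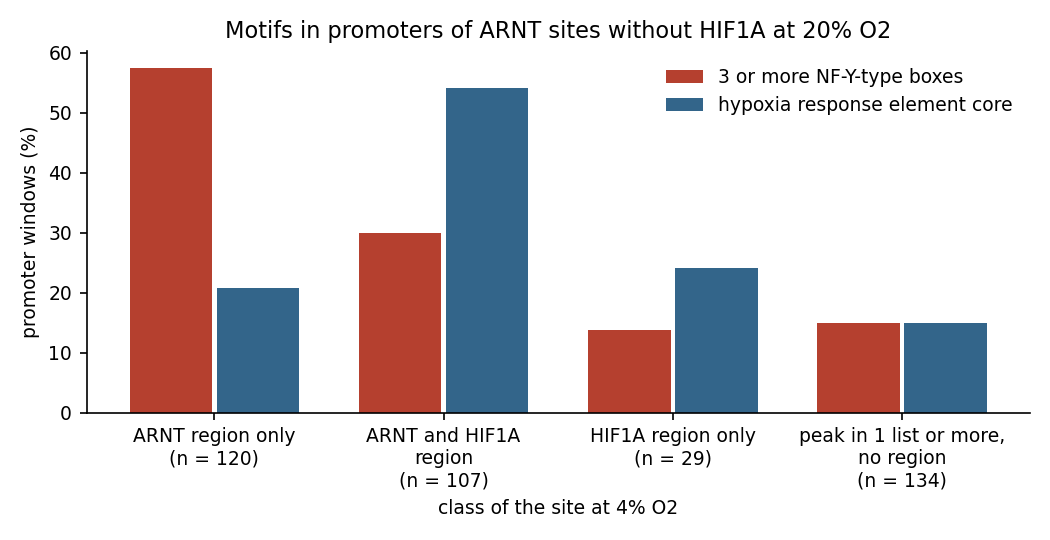
Percent of promoter windows with at least 3 NF-Y-type (CCAAT) boxes and with the hypoxia response element core (ACGTG), for ARNT sites without HIF1A at 20% O2, by their state at 4% O2. Boxes lead in sites with an ARNT region alone (57.5% and 20.8%), and the hypoxia core leads in sites with both regions (54.2%, against 29.9% with boxes).

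The 10 sites with the highest ARNT scores at 20% O2 all had a peak in both ARNT lists at 4% O2. Their ARNT ranks there ran from 96.9 to 99.7 in replicate 1 and from 68.0 to 99.6 in replicate 2, against medians of 87.5 and 61.0 over all sites with a peak. A rank here is the percent of a list's peaks that the peak's score equals or exceeds, using the authors' scores. The top site lay 5817 bp from Srbd1, which encodes an S1 RNA-binding domain protein (chr17:86150788-86151278), with ARNT ranks of 99.4 and 92.5 at 4% O2 and no HIF1A peak in any list. Next came Top2a, the topoisomerase that untangles chromosomes in mitosis, with its site centred 102 bp upstream of the start (chr11:99024106-99024477). Its ARNT scores were 146 and 25.2 at 4% O2 and 221 and 143 at 20% O2, ranks of 99.1 and 68.0 at 4% O2, and no HIF1A list had a peak there. Flad1, which makes the cofactor FAD, had ARNT ranks of 97.9 and 68.6 at 4% O2, and Abhd2, a lipid hydrolase gene, had 97.9 and 82.8, both again without a HIF1A peak. Sp1 and Sp2 encode zinc finger factors that bind GC-rich promoters. The Sp2 site had ARNT ranks of 99.2 and 80.2 and a HIF1A rank of 39.6 in replicate 1 only at 4% O2, and the Sp1 site had ARNT ranks of 99.2 and 89.2 and HIF1A ranks of 49.9 and 7.36 at 4% O2, in peaks that did not overlap each other. Rab5b, an early endosome GTPase gene whose site lay 1298 bp from Cdk2, had ARNT ranks of 98.4 and 92.1 and 1 HIF1A peak with a rank of 2.77 at 4% O2. The Evi5l site had ARNT ranks of 98.9 and 89.7 and a HIF1A rank of 67.4 in replicate 1 only.

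Of these 10 sites, those at Eif2ak3 and Khsrp had a HIF1A region at 4% O2. Eif2ak3 encodes PERK, the kinase that lowers translation when the endoplasmic reticulum is stressed, and its site had ARNT ranks of 96.9 and 70.3 and HIF1A ranks of 90.4 and 59.9 at 4% O2. Khsrp, an RNA-binding splicing and decay factor, had ARNT ranks of 99.7 and 99.6 and HIF1A ranks of 99.7 and 99.5 at 4% O2. At 20% O2 both had a HIF1A peak in replicate 2 only, with ranks of 36.4 and 99.3. All 10 had an ARNT region at 4% O2.

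A small group of the sites had HIF1A ranks near the top of both 4% O2 lists. P4ha1, a subunit of the collagen prolyl hydroxylase (chr10:59323193-59323397), had its site centred 1 bp upstream of the start. Its HIF1A scores were 1137 and 1532 at 4% O2, and at 20% O2 replicate 1 had no peak and replicate 2 one of 474. Its ARNT scores were 513 and 2120 at 4% O2, and 30.4 and 20.2 at 20% O2. All 4 values at 4% O2 stood above every value at 20% O2, but scores of different lists are not on a known common scale. Alkbh5, an RNA demethylase gene, had its site 432 bp upstream of the start (chr11:60537195-60537308), and a further site lay 47535 bp from Hk2, a hexokinase gene (chr6:82821864-82822115). Sites 240 bp from Kdm4b, a histone demethylase gene, and 891 bp from Epo, which encodes erythropoietin, had HIF1A ranks of 99.9 and 99.9 and of 99.9 and 99.8 at 4% O2. The others of these 10 lay at Khsrp, inside Auts2 and Elfn2, 2700 bp from 1600014C23Rik and 147162 bp from Jade1. Of the 10, 8 had a HIF1A peak at 20% O2 in replicate 2 alone, and those in Auts2 and near Jade1 had peaks in both lists that did not overlap each other, so each of the 10 counts here because HIF1A replicate 1 lacked a matching peak. Over all 738 sites, 22 of the 47 with a HIF1A peak in replicate 1 only and 147 of the 258 in replicate 2 only had a HIF1A region at 4% O2, against 86 of the 419 with none (20.5%, 16.9 to 24.7).

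The sites with ARNT at 4% O2 and no HIF1A peak in any list were led by the one near Srbd1, followed by Crlf2, a cytokine receptor subunit gene, with ARNT ranks of 98.0 and 92.7 at 4% O2. A site 86 bp from Maf1, which encodes a repressor of RNA polymerase III, had ranks of 98.2 and 88.2. Abhd2, Nlk, a kinase of Wnt and Notch signalling, Ccdc188, Zfp687, Nfatc2ip, Ankrd54 and Lrch4 made up the 10. Their ARNT ranks at 4% O2 ran from 95.2 to 98.0 in replicate 1 and from 72.9 to 83.6 in replicate 2. Of these 10 sites, 7 overlapped a promoter window, and its boxes numbered 4 in Nfatc2ip, Ankrd54 and Lrch4, 3 in Abhd2 and Nlk, 2 in Zfp687 and 1 in Ccdc188.

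The 25 sites without any peak at 4% O2 mostly lay away from starts, with 5 of the 24 that could be placed within 500 bp of one (20.8%). The highest lay inside Edem1 and Tmx3, which act in protein quality control of the endoplasmic reticulum, with ARNT ranks of 95.2 and 92.5 and of 95.4 and 91.0 at 20% O2. Behind them came sites inside Etv6, an ETS repressor, and Ccdc7b, near Clpb, a mitochondrial disaggregase, near Slc2a9, a urate transporter, and inside Auts2. Melk, a mitotic kinase, had its site 8 bp upstream of the start with ranks of 69.6 and 76.9, and Taf1c, a factor of RNA polymerase I, 67 bp upstream with 70.3 and 68.8. The site near Mapk1ip1 completed the 10. Of the 5 promoter windows under such sites, 0 held 3 boxes or ACGTG.

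Genes of the cell cycle and DNA replication were met most often among 14 gene lists. Of 27 such genes, 9 had a site within 5 kb of an end (33.3%, 18.6 to 52.2), against 762 of 21631 protein-coding genes (3.52%). With a co-bound region there were 2 of the 27, against 195 of 21631 protein-coding genes (0.901%). Within 1 kb of an end, 7 of the 27 had a site, against 2.64% of protein-coding genes. The 9 were Top2a and Cdk2 (above), Plk1 and Aurka, kinases of mitosis, Cdk1, the kinase that starts it, its partners Ccnb1 and Ccna2, and Mcm3 and Mcm5, subunits of the replicative helicase. The list was chosen with the nearest genes of earlier results in view, so its count describes the sites. It was 14 of 27 without ARNT 20% O2 replicate 2, where 2592 of the 21631 protein-coding genes had a site. Cdk1 had ARNT ranks of 93.8 and 70.1 at 4% O2, a HIF1A rank of 84.0 in replicate 1 at 4% O2, and a HIF1A peak in replicate 2 at 20% O2. Plk1 had ARNT ranks of 96.1 and 37.0 and a HIF1A rank of 17.0 in replicate 1 alone at 4% O2, with its site centred 6 bp upstream of the start. The site counted for Ccnb1 lay 2778 bp from it, at the start of Cenph, a kinetochore protein gene, with an ARNT rank of 95.1 in replicate 1 only at 4% O2 and no HIF1A peak. Mcm3 had HIF1A ranks of 96.1 and 87.2 and ARNT ranks of 95.2 and 69.8 at 4% O2. Aurka had 2 sites, one 14 bp upstream of its start and one 75 bp upstream of the neighbouring start of Cstf1. Mcm5 had an ARNT rank of 84.8 in replicate 1 only and HIF1A ranks of 67.3 and 32.4 at 4% O2. The members without a site were not all free of ARNT, as Mcm6, Bub1 and Cdc20 had 1 ARNT peak in replicate 1 at 20% O2 and 0 in replicate 2 within 5 kb.

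Of 28 hypoxia response genes, 4 had a site (14.3%, 5.70 to 31.5), against 3.52% of protein-coding genes. They were P4ha1, Epo, Kdm4b and Ndufa4l2, a subunit-like protein of the respiratory chain. The site counted for Ndufa4l2 lay 4732 bp from it and 499 bp from the start of Shmt2, the mitochondrial serine hydroxymethyltransferase gene, with ARNT and HIF1A peaks in replicate 1 only at 4% O2. Of 20 genes of DNA damage and chromatin, 3 had a site (15.0%, 5.24 to 36.0, against the same 3.52%). They were H2ax, the histone that marks DNA breaks, Brca1, a repair gene that shares 2 sites with Nbr1, and Ezh2, a histone methyltransferase. The H2ax site had ARNT ranks of 94.0 and 21.8 and no HIF1A peak at 4% O2, and the nearer one at Brca1 had ARNT ranks of 90.4 and 77.8 and HIF1A ranks of 84.4 and 74.8. The other Brca1 site, 636 bp away, had an ARNT rank of 80.4 and a HIF1A rank of 64.1, in replicate 1 only at 4% O2. Of 31 lysosome genes 3 had a site (Sqstm1, Ctsb and Lamp1), of 26 nucleolus and MYC genes 2 (Odc1 and Polr1b), of 32 oxidative phosphorylation genes 2 (Atp5b and Cyc1) and of 48 ribosomal protein genes 2 (Rpl9 and Rpl18). The sites counted for Cyc1, Rpl9 and Rpl18 are those nearest to Maf1, Lias and Sphk2, and the Cyc1 one lay 4804 bp away. Atp5b, the catalytic beta subunit of ATP synthase, had ARNT ranks of 98.7 and 85.7 at 4% O2 and 5 boxes in its window. Of the 26 glycolysis genes, 7 had a co-bound region within 5 kb of an end, against 0.901% of protein-coding genes. No site lay that close to an end of them, but 1 lay inside Pfkp, a phosphofructokinase gene. None lay that close to an end of the 18 genes of the bHLH-PAS family itself, the 12 of the AHR pathway, the 19 clock genes, the 21 immediate early genes, the 20 sympathoadrenal genes or the 32 genes of other tissues. In the bHLH-PAS family, Arntl, which encodes the clock factor BMAL1, had a site inside the gene, centred 191 bp upstream of an annotated start (chr7:113207130-113207418), and it is named here after its values were seen. Its ARNT ranks were 87.9 and 65.7 at 4% O2 and 98.6 and 95.1 at 20% O2, its HIF1A ranks at 4% O2 were 10.1 and 3.02 in peaks that did not overlap each other, and its window held 8 boxes and 0 ACGTG. Psap and Kdm6b, of the lysosome and the DNA damage and chromatin lists, also had a site inside the gene and away from its ends. A count of 0 in lists of this size is near the background of 3.52%.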

How the data were processed

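ChIP-seq peak lists of 8 samples were used, and 4 inputs were not analysed here. Reads were processed with BWA, Picard and MACS2 on mm10, per the submitters' processing notes, in versions not given in the sources used here. The score in each list is the authors' own value, deposited without a named scale, and served only to rank peaks within a list. HIF1A replicate 2 lists were called against input 5 and the others against input 4, per the file names, so ARNT and HIF1A replicate 1 lists share an input. Reads of HIF1A replicate 2 came from 2 combined runs, per the labels.

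Overlaps needed 1 bp. A region was a merged stretch with peaks in both lists of a group. Genes, starts and promoters came from RefSeq tables of GRCm38.p6. Starts on chromosome 18 and exon positions were not used here. A site was named for the nearest protein-coding start within 1 kb, otherwise for the nearest protein-coding gene. Of 361 gene list entries 360 matched, 1 of them by an alias. Motifs were searched as letters on both strands. Wilson intervals have a level of 95%. Exact permutation tests compared lists. The code was tested on simulated lists (Python 3.11.15, NumPy 2.4.6, SciPy 1.17.1).

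The sites and gene lists were chosen with earlier results of these data known. Named genes are those nearest to the 10 highest sites at 20% O2, the 10 highest without a peak at 4% O2, the 10 highest with a HIF1A region at 4% O2, the 10 highest with ARNT at 4% O2 and no HIF1A peak, and up to 8 genes of each list by mean ARNT rank at 20% O2. Mcm5 (a ninth cell cycle gene) and the cell cycle genes without a site were added after their values were seen. Alternatives were another overlap, wider HIF1A summits, stricter absence of HIF1A, equal list lengths, standard chromosomes, and leaving out each list in turn.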

Additional observations from a re-analysis of the deposited data

How the results depend on the processing

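The number of sites was 738 and moved with the rule. It was 419 where neither HIF1A list at 20% O2 could have a peak, and from 489 (without HIF1A 20% O2 replicate 1) to 4573 (without ARNT 20% O2 replicate 2, the shortest list) with 1 list left out. The share with an ARNT region at 4% O2 (45.1%) was 10.1% with the 1808 highest peaks of each list and 25.0% to 93.2% with 1 list left out, the highest without ARNT 4% O2 replicate 2. The share with a HIF1A region at 4% O2 (35.9%) was 20.5% with no HIF1A peak in either list at 20% O2, 7.82% with the 1808 highest peaks, and 26.2% to 81.3% with 1 list left out, the highest without HIF1A 4% O2 replicate 2. The share with no peak at 4% O2 (3.39%) was 5.25% and 61.4% under the same pair of alternatives, and 3.39% to 14.1% with 1 list left out. The share within 1 kb of a gene end (61.1%) was 65.6% and 50.2% there, 71.4% within 5 kb, and 32.3% to 64.8% with 1 list left out. Without ARNT 20% O2 replicate 2, 29.2% of sites lay within 500 bp of a start, against 6.31% of co-bound regions, and 19.8% of windows held at least 3 boxes, against 8.97% of co-bound windows. The ARNT minus HIF1A difference (13.4 points) turned to -1.12 without ARNT 20% O2 replicate 2, -10.5 without ARNT 4% O2 replicate 1 and -12.0 without HIF1A 4% O2 replicate 2, with a highest value of 38.8. Leaving out a list at 4% O2 sets 1 list of an antibody against 2 of the other, of unlike length. The difference from co-bound regions (-9.57 points), which pools the lists of both antibodies, ran from -20.7 to 0.736. With a replicate block, paired by number, these 2 differences had the same sizes, 13.4 and -9.57 points, with exact permutation p = 0.50 for both, the smallest that 2 pairs allow. The cause of these moves was not tested, other than that fewer peaks enter. Of 158 alternative values, 30 left the interval or count range of the main value, 4 changed sign and 46 were identical to it, many because the setting does not enter the result. The tested differences could only be judged by sign, as no setting let them pass a threshold. Starts on chromosome 18, depth and the scale of the scores limit all values.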

Other observations

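Protein-coding promoters under these sites often had an opposite-strand start nearby. Of 354 such promoters, 71 (20.1%, 95% Wilson interval 16.2 to 24.5) had a protein-coding start on the opposite strand within 1 kb, against 5 of 46 under co-bound regions (10.9%, 4.73 to 23.0), 181 of 1439 under ARNT regions new at 4% O2 (12.6%, 11.0 to 14.4) and 9.39% of all coding promoters. Pairs among the genes named above include Aurka with Cstf1 and Brca1 with Nbr1. One site can thus be counted for a pair of genes.

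Repeated CCAAT boxes were less common at other ARNT regions without HIF1A. ARNT regions at 4% O2 with neither a HIF1A region at 4% O2 nor an ARNT region at 20% O2 lay within 500 bp of a start in 489 of 946 cases (51.7%, 48.5 to 54.9), close to the 58.2% of the sites at 20% O2. Of their 447 promoter windows, 41 (9.17%, 6.83 to 12.2) held at least 3 boxes, against 31.6% of windows under the sites at 20% O2, and 140 (31.3%) held ACGTG. Within the sites at 20% O2, the 246 with the highest mean ARNT rank held at least 3 boxes in 56 of 136 windows (41.2%), the middle 246 in 39 of 138 (28.3%) and the lowest 246 in 30 of 121 (24.8%). The share with ACGTG was 27.9%, 27.5% and 28.1% in the same order.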
